A study of Mus musculus with 20 samples.

Results

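Livers taken at the end of hemorrhagic shock with severe trauma were set against livers taken after 4.5 h of resuscitation that followed the same insult. The comparison used 8 of the study's 20 arrays, 4 in each group, picked by their titles alone, and every gene measured on them. All mice were male C57BL/6 animals aged 8 to 12 weeks. The shock group went through 1.5 h of hemorrhagic shock plus severe trauma and had 0 h of resuscitation. The resuscitated group had that same 1.5 h and then 4.5 h of resuscitation. The other 12 arrays held untouched controls (n = 5), minor trauma (n = 3) and 1 h of resuscitation (n = 4). Those arrays are not part of the comparison and entered a model only in alternative analyses. Levels in controls, after minor trauma or at 1 h stand beside some results as values only. The resuscitated mice were sampled 4.5 h later than the shock mice, so resuscitation, time since injury and hour of the day cannot be told apart. The labels number the samples in a group but do not say that each came from its own animal, so the p-values measure only the spread between these samples, which may be technical. The sources used here did not say which fluid was given or what the trauma was.

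Hemorrhagic shock is a loss of blood severe enough to starve tissues of oxygen, and resuscitation restores flow to them. Hepatocytes, the main cells of the liver, make bile acids, glucose and most plasma proteins, and under inflammatory cytokines they switch to making acute phase proteins. Kupffer cells, the resident macrophages of the liver sinusoids, and the sinusoidal endothelium meet the returning blood first, and neutrophils and monocytes are recruited from it. Interferons act through receptors, STAT and IRF factors to induce antiviral enzymes, guanylate-binding proteins and antigen presentation genes. Immediate early genes such as Fos, Jun and Atf3 encode transcription factors that are induced within minutes of stress without new protein synthesis, and their mRNAs decay quickly.

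Each value is a level: the log2 of an array's deposited signal plus a pseudocount of 6, after quantile normalization over the 8 arrays. A difference is the mean level at 4.5 h minus the mean level at the end of shock, with its SE and n = 4 arrays in each group. Hepatocyte markers checked the labelled tissue. Albumin (Alb) lay between 13.03 and 13.28 on the 8 arrays, near the top of the scale, where a rise may be understated or not show, and none of 13 hepatocyte markers was below the array median throughout. The overall brightness of the arrays, taken as the 2% trimmed mean signal before normalization, ran from 77.2 to 166 in the shock group and from 64.9 to 102 at 4.5 h. Those values overlapped, and an exact two-sided permutation test over all 70 regroupings gave p = 0.6 (0.714 after adjustment over 4 array measures), where the smallest possible p is 0.0286. After normalization the groups separated on principal component 1, with 69.7% of the variance. Shock array 4 was the brightest array and had the lowest levels of several inflammatory genes in its group, and 4.5 h array 3 stood apart on component 2, with 6.91%.

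The 2 groups differed widely. Of 11311 genes tested, 5423 (47.9%) passed the test at an adjusted p of at most 0.05, with 2345 (20.7%) higher at 4.5 h and 3078 (27.2%) lower. A change of at least 2-fold was found in 703 genes that rose (6.22%) and 786 that fell (6.95%), and a change of at least 4-fold in 177 and 105. The values of both groups did not overlap for 5025 genes (44.4%), and 4715 of these had passed the test. Higher genes made up 43.2% of the calls, against 32.9% with median centring of the arrays and 30.6% with the signals as deposited, which moved the median difference of all genes from -0.07 to -0.16 and -0.26. Arrays also differed in the signal of the probe sets for the poly-A control RNA dap, whose mean was above 100 on 2 arrays of each group. Those arrays are called spiked here from this signal alone, as the labels used here do not record a spike-in. Within the spiked arrays 3329 genes passed the test (1466 higher, 1863 lower) and within the others 2741 did (1220 higher, 1521 lower). Among the 15 genes with the largest rise were 8 interferon-induced genes (Gbp2, Cmpk2, Ifit1, Ifit3, Ifit2, Usp18, Mx1 and Rsad2), the acute phase genes A2m, Lcn2 and Saa3, and the chemokine Cxcl9. Rgs16, G6pc, Ddc and Cyp7a1 had the largest falls. In the gene lists that follow, a count of 4 or fewer genes in a direction moved by up to 2 when single arrays were left out. Each count stands against the shares of all genes, 20.7% higher and 27.2% lower.

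**Figure D1:**
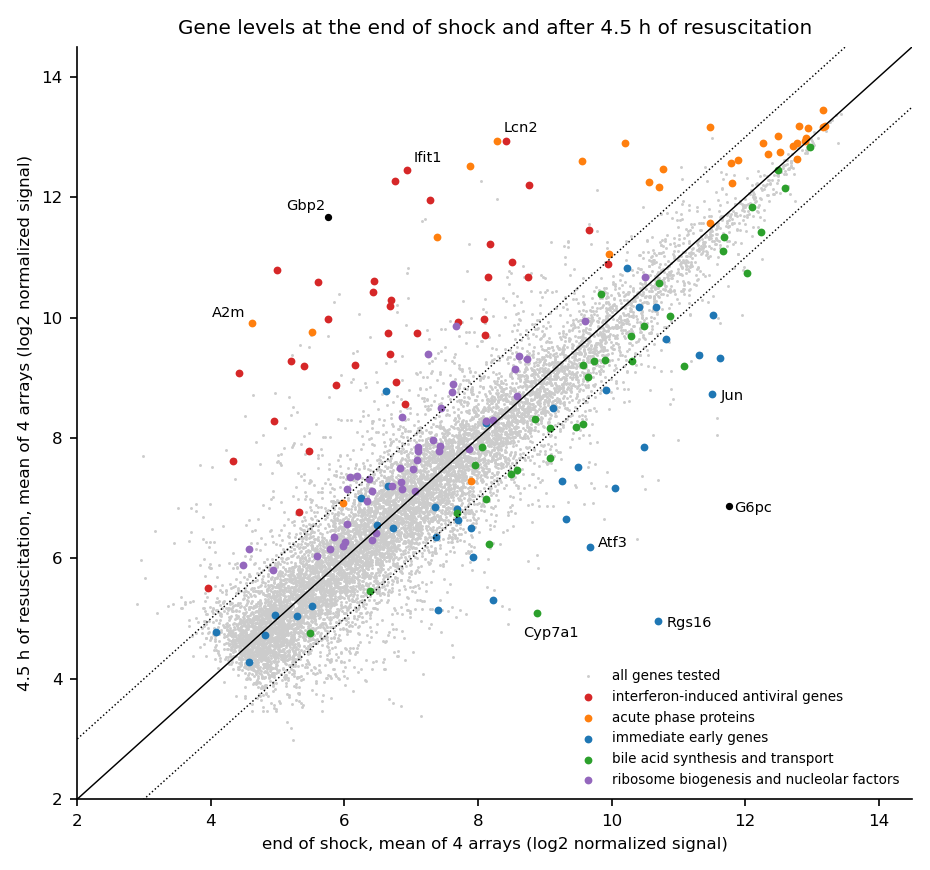
Mean level of each gene at the end of shock (x axis) and at 4.5 h of resuscitation (y axis), both as log2(signal + 6), with n = 4 arrays per group, 5 gene lists in colour, a solid line of equality and dotted lines at 2-fold. Antiviral genes lie above the upper dotted line or close to it, with Gbp2 up by 5.92 and Ifit1 up by 5.53, and Rgs16, G6pc and Cyp7a1 lie far below the lower one.

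Interferon-induced genes rose together. All 36 antiviral genes tested were higher at 4.5 h, with a median difference of 3.08, where 20.7% of all genes were higher and the median of all genes was -0.07. All 36 had values that did not overlap between the groups, where 44.4% of all genes had such values. All 36 remained higher whichever single array was left out. Ifit1, whose protein binds viral RNA lacking a host cap, stood at 6.81, 6.90, 7.20 and 6.82 on the 4 shock arrays and at 12.39, 12.45, 12.53 and 12.49 on the 4 arrays at 4.5 h. The rise of 5.53 ± 0.09 (SE, adjusted p = 1.52e-11) was 46.2-fold. The shock level was close to the control mean of 6.90, and the 1 h mean was 7.45. Ifit3, its partner protein, stood at 6.69, 6.71, 6.82 and 6.81 at the end of shock and at 11.97, 12.39, 12.38 and 12.39 at 4.5 h, a rise of 5.52 ± 0.10 (adjusted p = 2.37e-11). For both genes every array at 4.5 h lay far above every shock array. Cmpk2, a mitochondrial nucleotide kinase encoded beside Rsad2, rose from 5.20, 4.82, 5.12 and 4.82 to 10.09, 10.62, 10.98 and 11.46, or 55.7-fold. Rsad2 encodes viperin, an inhibitor of viral replication. It rose from 8.19, 8.45, 8.94 and 8.12 to 12.74, 12.92, 12.93 and 13.18, or 22.9-fold. With the median of a gene's probe sets in place of the brightest one, the log2 differences of Cmpk2 and Rsad2 were 5.09 and 5.34 in place of 5.8 and 4.52. The levels of Rsad2 at 4.5 h were near the top of the scale. Usp18, which removes ISG15 from proteins and limits interferon receptor signalling, rose by 4.68 ± 0.13, and Mx1, a dynamin-like GTPase that blocks influenza virus, by 4.66 ± 0.25 (4.05 with a pseudocount of 18). Isg20, an RNA exonuclease, rose by 4.16 ± 0.11. Of the factors that carry the interferon signal, Irf7 rose 6.28-fold, Stat2 4.95-fold and Irf9 3.16-fold.

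The guanylate-binding proteins and immunity-related GTPases, which attack membranes around intracellular microbes, also rose. All 9 tested were higher, with a median difference of 3.43. Gbp2 had the largest rise of any gene named here, from 5.47, 6.02, 5.88 and 5.62 at the end of shock to 11.30, 11.96, 11.68 and 11.72 at 4.5 h. The difference of 5.92 ± 0.15 (adjusted p = 3.64e-10) was 60.5-fold, and the shock levels lay within the range of the controls, 5.13 to 6.55. Igtp, an immunity-related GTPase, rose from 8.17, 7.96, 7.83 and 8.25 to 12.13, 12.33, 12.37 and 12.27, a rise of 4.22 ± 0.10. Gbp3, Gbp6, Irgm2, Gbp7 and Irgm1 rose between 10.3-fold (Irgm1) and 15.3-fold (Gbp3). The log2 difference of Gbp6 was 3.81, and 4.47 with the median of its probe sets.

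Promoters of these genes are shown because members moved together, with the 250 bases before the start of transcription from RefSeq (GRCm38.p6), read 5′ to 3′ on the gene's strand. The letters GAAANNGAAA, the core of the interferon-stimulated response element, were searched on both strands, and the 5 genes with the largest rise among those with a match are printed. Capitals mark the matches. Those of Igtp lie on the printed strand and those of the other 4 on the opposite one, so they appear as pairs of TTTC.
Gbp2: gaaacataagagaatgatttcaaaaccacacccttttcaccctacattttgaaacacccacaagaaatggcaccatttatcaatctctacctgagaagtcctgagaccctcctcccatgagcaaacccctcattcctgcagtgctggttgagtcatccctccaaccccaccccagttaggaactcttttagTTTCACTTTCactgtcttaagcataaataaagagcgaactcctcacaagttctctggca
Ifit1: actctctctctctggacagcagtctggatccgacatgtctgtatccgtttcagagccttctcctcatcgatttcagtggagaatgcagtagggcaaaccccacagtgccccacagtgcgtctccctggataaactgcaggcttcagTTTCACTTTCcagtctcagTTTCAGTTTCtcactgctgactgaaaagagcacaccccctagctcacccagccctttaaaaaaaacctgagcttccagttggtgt
Ifit3: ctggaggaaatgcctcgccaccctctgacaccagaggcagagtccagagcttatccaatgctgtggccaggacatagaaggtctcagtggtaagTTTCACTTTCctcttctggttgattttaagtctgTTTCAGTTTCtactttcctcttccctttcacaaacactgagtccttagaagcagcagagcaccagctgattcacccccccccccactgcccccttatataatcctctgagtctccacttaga
Rsad2: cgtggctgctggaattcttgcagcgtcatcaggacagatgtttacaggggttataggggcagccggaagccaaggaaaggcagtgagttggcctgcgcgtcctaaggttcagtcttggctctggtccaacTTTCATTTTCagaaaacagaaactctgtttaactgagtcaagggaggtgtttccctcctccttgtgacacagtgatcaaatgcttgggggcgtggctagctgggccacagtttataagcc
Igtp: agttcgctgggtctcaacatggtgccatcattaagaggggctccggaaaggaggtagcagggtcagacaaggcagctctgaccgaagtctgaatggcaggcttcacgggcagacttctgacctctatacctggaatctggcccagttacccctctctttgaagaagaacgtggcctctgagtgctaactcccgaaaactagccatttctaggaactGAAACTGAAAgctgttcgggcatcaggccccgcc
These windows are chr3:142620413-142620662 (plus strand) for Gbp2, chr19:34640639-34640888 (plus) for Ifit1, chr19:34583279-34583528 (plus) for Ifit3, chr12:26456453-26456702 (minus) for Rsad2 and chr11:58199306-58199555 (plus) for Igtp. Ifit1 and Ifit3 each hold 2 matches and the other genes 1. Of the called guanylate-binding and immunity-related GTPase genes with a promoter in the table, 6 of 6 held the motif (100%), and of the called antiviral genes 8 of 27 did (29.6%). It was found in 304 of the 9179 tested genes with a promoter (3.31%) and in 936 of 27018 genes with a promoter in all (3.46%). A gene with several promoters counted if any of them held the motif. A match is a description of these letters and not evidence of binding.

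Interferon ligands, receptors and IRF factors changed less uniformly. Of 13 genes tested in that list, 5 rose and 1 fell, with a median difference of 0.23. Some of the genes that rose, such as Irf1 and Socs1, themselves respond to interferon. Ifna4 and Ifng, interferon alpha 4 and interferon gamma, did not pass the filter on low values and were not tested. Ifnb1 was thus the only ligand tested. Ifnb1, interferon beta, stood at 4.56, 4.86, 4.73 and 4.78 at the end of shock and at 4.77, 4.0, 4.69 and 3.10 at 4.5 h, near the array median of 4.56, and did not pass the test (adjusted p = 0.192). The receptor genes Ifnar1 (difference 0.32, adjusted p = 0.0788) and Ifngr1 (-0.04, adjusted p = 0.753) did not pass it either. Irf1, an early interferon-response factor, rose by 0.78 ± 0.19. Its 1 h mean of 10.11 lay above all 4 values at 4.5 h, which ran from 8.24 to 8.74. The rise did not pass the test with the signals as deposited (0.58) or within the unspiked arrays (0.89). Irf3, a factor activated by sensors of viral nucleic acid, had a difference of -0.55 that passed the test, but not with the median of its probe sets (-0.08) or with the signals as deposited (-0.76). Socs1, a feedback inhibitor of interferon signalling, was at least 3.08-fold higher, a bound because it lay at or below the median of every shock array.

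Antigen presentation genes rose as a group, with 13 of 15 immunoproteasome and MHC class I loading genes higher and none lower (median difference 1.32). Tap1, a subunit of the peptide pump that loads MHC class I, stood at 6.35, 6.29, 6.05 and 5.83 at the end of shock and at 9.39, 9.38, 9.51 and 9.39 at 4.5 h, or 9.76-fold higher. Psmb9 and Psmb8, catalytic subunits that turn the proteasome into an immunoproteasome, rose 5.17-fold and 3.94-fold. Nlrc5, the transactivator of MHC class I genes, rose 4.54-fold. B2m, the invariant chain of MHC class I, differed by -0.02 and did not pass the test (adjusted p = 0.826). Its levels, 12.49 to 12.70 on the 8 arrays, were near the top of the scale. Of 31 tested subunits of the constitutive proteasome, 6 were higher (19.4%, near the 20.7% of all genes) and 2 lower (6.45%), with a median of -0.05.

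**Figure D2:**
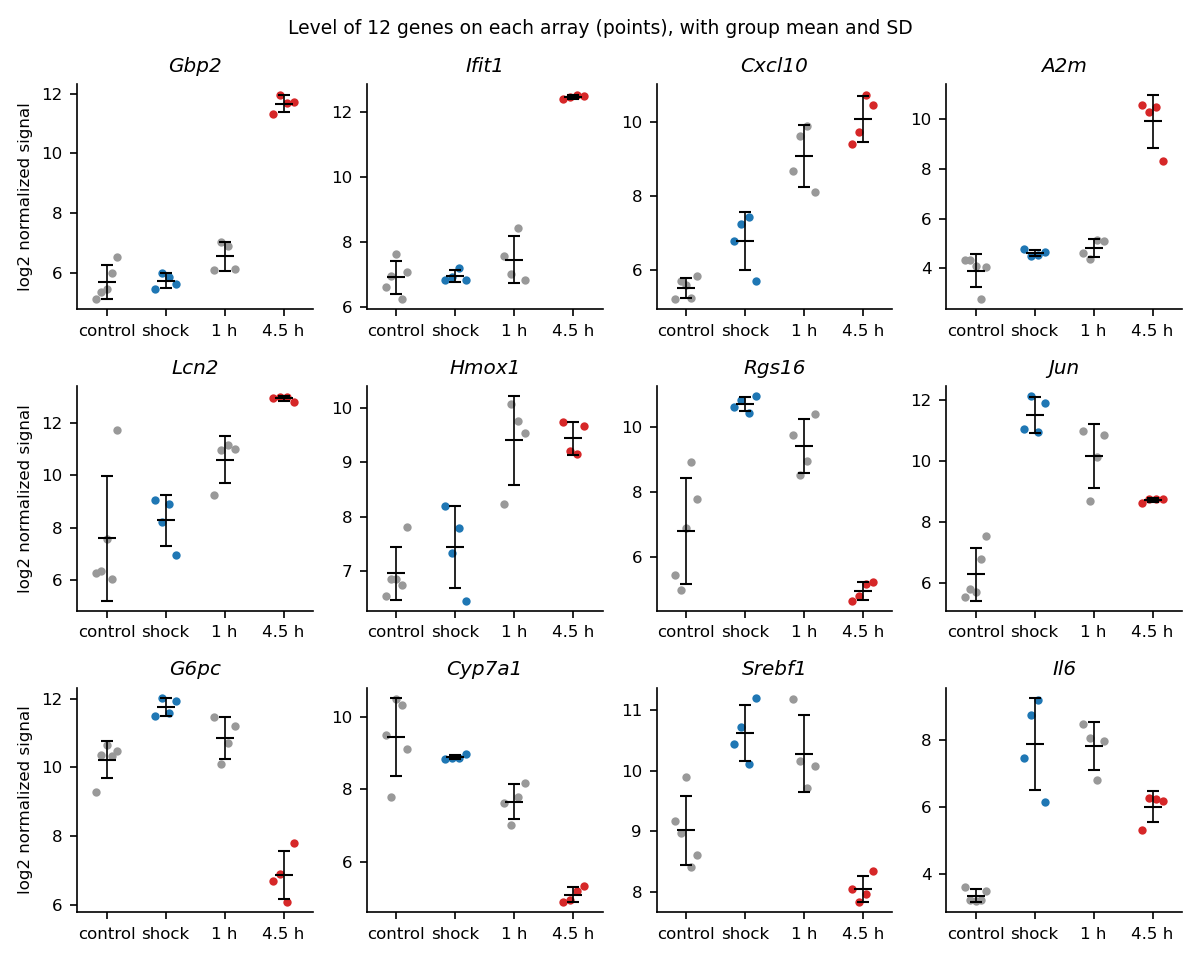
Level as log2(signal + 6) of 12 genes on each array (points) in control (n = 5), shock, 1 h and 4.5 h of resuscitation (n = 4 each), with the group mean and SD as bars. Gbp2, Ifit1 and A2m are far higher at 4.5 h than in the other 3 groups, Cxcl10 is already high at 1 h (mean 9.09), and Jun, Rgs16 and G6pc have their highest group mean at the end of shock.

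Chemokines induced by interferon rose, and the early neutrophil attractants did not pass the test. Of 16 tested, 8 rose and 2 fell (median difference 0.81). Cxcl9, a ligand of the T cell receptor CXCR3, stood at 6.69, 7.64, 7.21 and 7.28 at the end of shock and at 11.04, 12.27, 11.91 and 11.34 at 4.5 h, a 21.6-fold rise. Cxcl10, another CXCR3 ligand, rose from 6.80, 7.25, 7.43 and 5.70 to 9.41, 9.74, 10.75 and 10.48, or 9.87-fold. Its difference was 3.30 ± 0.37 (adjusted p = 2.6e-05), with 2.23 within the spiked arrays and 4.37 within the others, and its control mean was 5.53. Ccl5 rose 9.79-fold. Ccl2, which draws monocytes, stood at 5.44, 6.01, 5.87 and 3.58 at the end of shock and at 7.45, 8.66, 8.33 and 7.09 at 4.5 h. Its 6.31-fold rise was 2.66 on the log2 scale, and 2.10 without shock array 4, the array with the low value. Cxcl1 and Cxcl2, which draw neutrophils, did not pass the test, with differences of 0.86 (adjusted p = 0.125) and -0.93 (adjusted p = 0.166). Cxcl12, a retention signal for leukocytes, fell by 1.43 on the log2 scale.

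NF-kB targets and feedback genes rose more often than they fell, with 14 higher and 2 lower of 26 (4 lower without shock array 4), and a median difference of 0.87. Ikbke and Bcl3, a kinase and a coactivator of the pathway, rose 5.8-fold and 3.96-fold. Nfkb2, a subunit of NF-kB, passed the test with a log2 difference of 2.81, but its difference was 0.06 with no pseudocount and did not pass it. Tnf and Il1b, cytokines that NF-kB induces, did not pass the test. Tnf stood at 5.04, 5.91, 6.03 and 4.22 and then at 4.77, 6.29, 6.10 and 5.65 (adjusted p = 0.452), and Il1b differed by -0.92 (adjusted p = 0.164). Nfkbia, the inhibitor that NF-kB induces to end its own signal, differed by 0.01 (adjusted p = 0.926). Cd83, a surface protein of activated immune cells, fell by 2.42 on the log2 scale, and by 2.72 without shock array 4.

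Receptors and inhibitors of interleukin 1 were among the larger changes. Of 16 genes in that list, 11 rose and 4 fell (median difference 0.65). Il1rn, the receptor antagonist, stood at 5.86, 5.78, 5.98 and 4.47 at the end of shock and at 9.61, 9.70, 9.95 and 9.82 at 4.5 h. The 19-fold rise (log2 difference 4.25 ± 0.28) was 3.88 on the log2 scale without shock array 4, 3.65 with the median of its probe sets and 3.39 with only probe sets above the median on all 8 arrays. Irak3, a brake on signalling from the interleukin 1 and Toll-like receptors, was at least 7.78-fold higher (log2 difference 3.51, or 2.69 with the median of its probe sets), and the signalling receptor Il1r1 rose 4.61-fold. Myd88, the adaptor of these receptors, rose 4.91-fold. Of 13 Toll-like receptor genes, 8 rose and 1 fell. Tlr2, a receptor for bacterial lipoproteins, rose 18.6-fold, from 6.11, 5.42, 5.56 and 4.88 to 9.37, 9.80, 10.01 and 9.65. Tlr3, the sensor of double-stranded RNA, rose 9.67-fold and Cd14, a co-receptor for endotoxin, 3.98-fold.

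In the interleukin 6 family the cytokine fell, while a receptor and Stat3 rose. Il6 stood at 7.46, 8.75, 9.20 and 6.15 at the end of shock and at 5.31, 6.28, 6.24 and 6.18 at 4.5 h, against a control mean of 3.35. Shock array 4 lay within the 4.5 h range, and the fall of 1.89 ± 0.54 on the log2 scale (adjusted p = 0.0126) was 3.18 within the spiked arrays and 0.60 within the others, where it did not pass the test (adjusted p = 0.316). It did not pass it either without the 2 arrays of lowest weight (-1.66). Osmr, the oncostatin M receptor, rose 6.42-fold and Stat3, the factor that turns on acute phase genes, 3.25-fold. Stat3 stood at 9.12, 8.76, 9.15 and 8.84 and then at 10.64, 10.70, 10.72 and 10.61. With the median of their probe sets the log2 differences of Stat3 and Osmr were 0.56 and 1.67, in place of 1.70 and 2.68. Socs3, the feedback inhibitor of the pathway, did not pass the test (difference 0.44, adjusted p = 0.502). In all, 7 of 15 genes of the pathway rose and 3 fell.

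These inflammatory genes, which did not all move in the same direction, are also expressed by leukocytes. Summed markers of neutrophils and of monocytes were higher at 4.5 h, while those of Kupffer cells were lower, as given below. The summed linear level of 19 neutrophil markers, leaving out Lcn2, ran from 658 to 2765 on the shock arrays and from 4856 to 5483 at 4.5 h, against 221 to 619 in controls. At 1 h the sum ran from 3209 to 4985, which overlaps the 4.5 h range. A linear sum is weighted to its brightest members, here S100a8 among them, so it does not show that all 19 rose. Of the 20 neutrophil markers on the array, Lcn2 included, 7 did not pass the filter on low values and were not tested. The lowest of the shock sums, 658, was that of shock array 4. The neutrophil genes Camp and Padi4 lay below the array median on all 8 arrays. Summed monocyte and recruited macrophage markers ran from 8615 to 10756 and from 15242 to 17093, with Nos2 below the median throughout. The part of these cells in the changes of chemokine, NF-kB, interleukin and Toll-like receptor genes was not tested. In whole liver, fewer cells of a type and less RNA per cell cannot be told apart.

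Immediate early genes fell. Of 37 tested, 23 were lower and 4 higher (median difference -1.01), where 27.2% of all genes were lower. Rgs16, a regulator that shortens G protein signalling, had the largest fall of any gene named here. It stood at 10.61, 10.83, 10.44 and 10.94 at the end of shock and at 4.66, 4.79, 5.16 and 5.24 at 4.5 h, a fall of 5.74 ± 0.15 on the log2 scale (adjusted p = 4.21e-10), to below the control mean of 6.81. The controls were spread from 4.99 to 8.91, so the 4.5 h values overlapped their range. Jun, a subunit of the transcription factor AP-1, stood at 11.05, 12.12, 10.96 and 11.91 and then at 8.63, 8.75, 8.76 and 8.76. Its fall of 2.78 ± 0.22 left all 4 values above the control mean of 6.27. Fos, its partner, fell by 2.87 on the log2 scale and Atf3, a stress-induced repressor, by 3.48. Atf3 stood at 9.26, 10.08, 9.19 and 10.16 and then at 5.89, 5.87, 6.16 and 6.84, against a control mean of 4.41. Egr1 fell by 2.29 on the log2 scale, Myc by 1.06 and Ccn1, a matricellular protein induced by stretch and growth factors, by 2.92 (by 2.33 with the median of its probe sets). Ccn2, a close relative of Ccn1, went the other way and rose 4.5-fold, from 6.66, 6.30, 6.51 and 6.99 to 8.75, 8.78, 8.82 and 8.80. Tcim and Depp1, regulators of growth and autophagy, were at 7.99 and 8.26 in controls and fell by 3.40 and 3.35 on the log2 scale.

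Acute phase proteins, which hepatocytes secrete in inflammation, rose in 23 of 32 cases and fell in 2 (median difference 0.58). A2m, a broad protease inhibitor, stood at 4.76, 4.50, 4.54 and 4.65 at the end of shock, about the array median, and at 10.56, 10.28, 10.50 and 8.31 at 4.5 h. The difference was 5.30 ± 0.40 (adjusted p = 1.26e-06), with 5.90 within the spiked arrays and 4.70 within the others. Array 4 was the low one at 4.5 h, yet lay above every shock array. Lcn2, which withholds iron from bacteria, rose from 9.07, 8.21, 8.90 and 6.95 to 12.96, 13, 12.98 and 12.82, or 25.3-fold. The rise ended near the top of the scale, and 1 of the 5 control arrays (array 5) stood at 11.73, where the other controls ran from 6.06 to 7.57. In the minor trauma arrays the mean of Lcn2 was 12.10, not far below the levels at 4.5 h. Both neutrophils and hepatocytes make Lcn2, and their parts in the rise were not tested. Saa3 and Orm2, an inflammatory apolipoprotein and a drug-binding glycoprotein, rose 24.7-fold and 15.7-fold. Saa1 and Saa2 were spread widely at the end of shock, Saa2 from 8.12 on array 4 to 11.70 on array 1, and sat between 12.86 and 12.93 at 4.5 h. Steap4, a metalloreductase, rose 8.24-fold. Crp, C-reactive protein, rose by 0.78 on the log2 scale, and Hp, haptoglobin, had a difference of 0.13 that did not pass the test (adjusted p = 0.0702), at levels of 12.66 to 12.99, near the top of the scale.

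Complement and coagulation genes fell more often than they rose. Of 24 complement genes, 10 were lower and 5 higher (median difference -0.20), or 41.7% and 20.8%, where 27.2% and 20.7% of all genes were. The largest falls were in C1qc (1.40 on the log2 scale) and C1qa (1.36), subunits of the recognition protein of the classical pathway. C1qc stood at 8.91, 8.76, 8.92 and 8.65 and then at 7.35, 7.68, 7.26 and 7.35. Macrophages make C1q in liver, and all 3 of its genes are also among the Kupffer cell markers, whose sum fell as given below. Cfp, properdin, fell by 0.87 on the log2 scale, but another of its probe sets rose by 1.50. Of 24 coagulation and fibrinolysis genes, 11 were lower and 2 higher (45.8% and 8.33%). Klkb1, the gene of plasma prekallikrein, fell by 0.93 on the log2 scale from 10.67, 10.77, 10.77 and 10.91 to 9.91, 9.86, 9.78 and 9.83. The call of Thbs1, thrombospondin, one of the 2 higher genes, was lost with the signals as deposited (0.46), with median centring (0.56), with no pseudocount (0.72) and within the unspiked arrays (1.28).

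Among iron handling genes the largest falls were in a sensor and an exporter. Hjv, hemojuvelin, the co-receptor through which hepatocytes sense iron, stood at 9.05, 8.87, 8.79 and 8.86 and then at 6.07, 5.67, 5.64 and 5.99. That 8.28-fold fall (log2 difference -3.05 ± 0.12) left no overlap. Slc40a1, ferroportin, the iron exporter, fell 5.64-fold. Kupffer cells express it too, and it is among their markers, whose sum fell as given below, but their part in its fall was not tested. Slc39a14, a zinc and iron importer that interleukin 6 induces, rose 3.17-fold. Hamp, the hormone hepcidin, which degrades ferroportin protein, did not pass the test (difference 0.15, adjusted p = 0.0607) at levels of 12.62 to 12.98, near the top of the scale. Of 15 iron genes 6 were lower (40%) and 3 higher (20%), where 27.2% and 20.7% of all genes were. The count of lower genes was 3 without shock array 3 or without 4.5 h array 1.

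Stress responses were mixed. Of 23 endoplasmic reticulum stress genes, 14 rose and 2 fell (median difference 0.50). Creld2 and Dnajb9, helpers of protein folding in that compartment, rose 4.97-fold and 3.77-fold. Creld2 stood at 8.93, 8.23, 8.75 and 7.93 and then at 10.40, 11.08, 11.15 and 10.46. Xbp1, the transcription factor of this response, rose 2.15-fold, while Ern1, the sensor kinase that splices Xbp1 mRNA, fell 2.02-fold. Of 22 heat shock genes, 11 rose and 3 fell. Hspa1b, an inducible chaperone, stood at 8.85, 8.48, 8.4 and 8.42 and then at 9.33, 10.10, 10.27 and 11.16, a 3.2-fold rise. Hspa1a, in the same list, did not pass the test. Of 18 integrated stress response genes, 6 rose (33.3%) and 5 fell (27.8%), where 20.7% and 27.2% of all genes did. Their median, 0.05, changed sign with median centring and with the signals as deposited.

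Heme oxygenase rose, and the other genes of the NRF2 list went in both directions. Hmox1, which breaks down heme, stood at 8.20, 7.33, 7.80 and 6.46 at the end of shock, around the control mean of 6.96, and at 9.74, 9.20, 9.16 and 9.67 at 4.5 h. The 3.98-fold rise had an adjusted p of 0.000245, and the 1 h mean was 9.40. Gclm, a subunit of the enzyme that begins glutathione synthesis, fell by 0.97 on the log2 scale from 10.35, 10.62, 10.44 and 10.52 to 9.56, 9.45, 9.47 and 9.57. In all, 9 of 21 NRF2 and heme oxygenase genes fell and 4 rose. All 10 genes for metallothioneins and zinc transporters passed the test, 6 higher and 4 lower. Slc39a10, a zinc importer, rose 4.06-fold.

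Hypoxia-inducible genes were higher in 13 of 26 cases and lower in 3 (median difference 0.44). Hif1a, the oxygen-regulated factor itself, rose 3.05-fold, from 8.63, 8.66, 8.59 and 8.72 to 10.45, 10.18, 10.17 and 10.23. Vegfa, one of its targets and the main growth factor of vessels, had a difference of -0.26 (adjusted p = 0.2). Ddit4, an inhibitor of growth signalling induced by low oxygen and by glucocorticoids, fell 2.05-fold from 9.98, 10.93, 10.50 and 10.28 to 9.35, 9.6, 9.28 and 9.33, still above the control mean of 6.73. Of 24 p53 targets and cell death genes, 13 rose and 2 fell. Mlkl, the executor of necroptosis, stood at 5.32, 5.25, 5.11 and 5.23 and then at 8.35, 8.69, 8.44 and 8.60, a 9.8-fold rise. Fas, a death receptor, rose 6.04-fold. Sesn1, a stress sensor induced by p53, fell 4.49-fold.

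**Figure D3:**
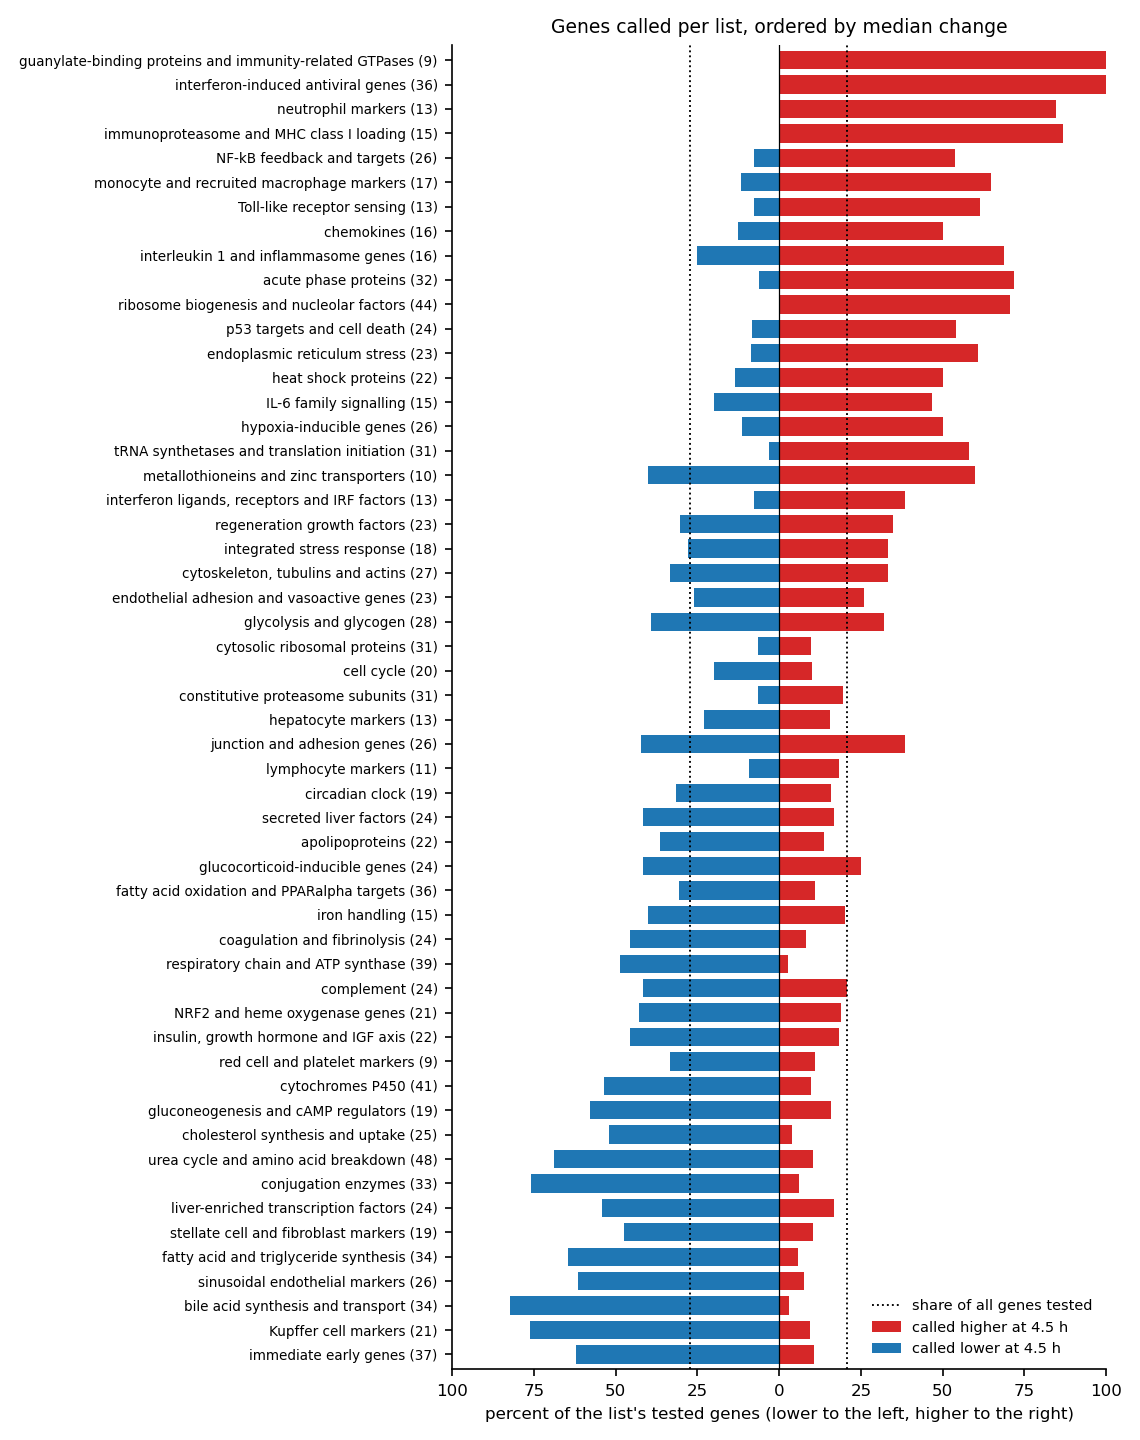
Percent of the tested genes of each of 54 lists called higher (bars to the right) or lower (bars to the left) at 4.5 h against the end of shock, in order of the median log2 difference, with dotted lines at the share of all genes (20.7% higher, 27.2% lower). Antiviral genes and guanylate-binding proteins are higher in 100% of cases, and bile acid genes are lower in 82.4% of cases.

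Bile acid genes had the highest share of falls of any list. Of 34 bile acid synthesis and transport genes, 28 were lower and 1 was higher (median difference -0.67). Cyp7a1, the rate-limiting enzyme of bile acid synthesis, stood at 8.84, 8.85, 8.87 and 8.97 at the end of shock and at 4.89, 4.96, 5.19 and 5.34 at 4.5 h. That fall of 3.79 ± 0.12 on the log2 scale (adjusted p = 1.37e-09) was 13.8-fold, and the groups were far apart. It was 2.79 with the median of its probe sets. The control mean was 9.45 and the 1 h mean 7.65. Cyp8b1, which sets how much cholic acid is made, fell 3.71-fold, from 11.04, 11.09, 11.07 and 11.15 to 9.55, 8.93, 9.01 and 9.29. Nr1h4, the bile acid receptor FXR, and Nr0b2, the repressor SHP that it induces, fell 2.45-fold and 2.52-fold. Klb, the co-receptor through which gut FGF15 represses Cyp7a1, fell 3.82-fold. The transporters Slc10a1, which takes bile acids up from blood, and Abcb11, which exports them into bile, fell by 0.80 and 0.85 on the log2 scale. Baat, which conjugates bile acids, was the gene that rose.

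The deepest fall among metabolic genes was in the mRNA of a gene of glucose output. G6pc, glucose-6-phosphatase, which releases free glucose, stood at 11.49, 12.03, 11.59 and 11.93 at the end of shock and at 6.71, 6.90, 6.08 and 7.80 at 4.5 h. The fall of 4.89 ± 0.28 on the log2 scale (adjusted p = 1.43e-07) was 29.7-fold and went below the control mean of 10.22. Pck1, the other well-known enzyme of gluconeogenesis, fell by 0.22 on the log2 scale, at levels of 11.73 to 12.28, near the top of the scale. Ppargc1a and Ppargc1b, coactivators of mitochondrial and gluconeogenic genes, fell 3.85-fold and 8.87-fold. The log2 difference of Ppargc1a was -1.94, and -1.25 with only probe sets above the median on all 8 arrays. Ppargc1b stood at 8.42, 8.10, 8.73 and 8.21 and then at 5.19, 5.24, 5.49 and 4.95. In all, 11 of 19 genes of gluconeogenesis and its cAMP regulators fell and 3 rose.

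Genes of glycolysis and glycogen were split, with 9 higher and 11 lower of 28. Their median, -0.02, changed sign with trimmed mean scaling. The falls included 3 targeting subunits that bring a phosphatase to glycogen. Ppp1r3c stood at 11.16, 11.82, 11.78 and 11.54 and then at 7.81, 9.83, 7.40 and 7.19, a fall of 3.52 on the log2 scale that was 4.11 without 4.5 h array 2. Ppp1r3g fell by 2.41 and Ppp1r3b by 1.28 on the log2 scale. The rises were in glycolytic enzymes. Pkm, the pyruvate kinase of most other cell types, rose 3.29-fold from 6.07, 5.78, 6.18 and 5.62 to 7.56, 7.52, 7.65 and 7.78, and Hk2 and Pfkl, a hexokinase and a phosphofructokinase, rose 1.98-fold and 2.18-fold. Neither Hk2 nor Pfkl passed the test with the signals as deposited (0.82 and 0.91). Leukocytes also express Pkm and Hk2, and their part in these rises was not tested.

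Genes of lipid synthesis fell more often than they rose. Of 34 genes of fatty acid and triglyceride synthesis, 22 were lower and 2 higher (median difference -0.62). Srebf1, the insulin-driven transcription factor of this pathway, stood at 10.44, 10.73, 10.12 and 11.21 at the end of shock and at 8.05, 7.83, 7.97 and 8.34 at 4.5 h. Its 5.98-fold fall took it below the control mean of 9.02. Fasn, fatty acid synthase, fell 4.84-fold from 10.87, 11.19, 10.47 and 11.17 to 8.95, 8.86, 9.06 and 7.73. Lpin2 and Lpin1, phosphatases on the way to triglyceride, fell 4.97-fold and 3.81-fold, and Plin5, a lipid droplet coat protein, 4.35-fold. Of 25 cholesterol genes, 13 were lower and 1, the cholesterol exporter Abca1, was higher. Abca1 rose 2.78-fold, from 10.84, 10.64, 10.69 and 10.70 to 12.26, 12.12, 12.21 and 12.20. Insig1, which holds SREBP factors in the endoplasmic reticulum, fell 3.29-fold. Of 36 genes of fatty acid oxidation, 11 fell and 4 rose, a share of falls close to that of all genes, and Cpt1a, the gate of mitochondrial entry, did not pass the test (difference -0.06, adjusted p = 0.653). Of 22 apolipoproteins and related genes, 8 fell (36.4%) and 3 rose (13.6%), where 27.2% and 20.7% of all genes did.

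**Figure D4:**
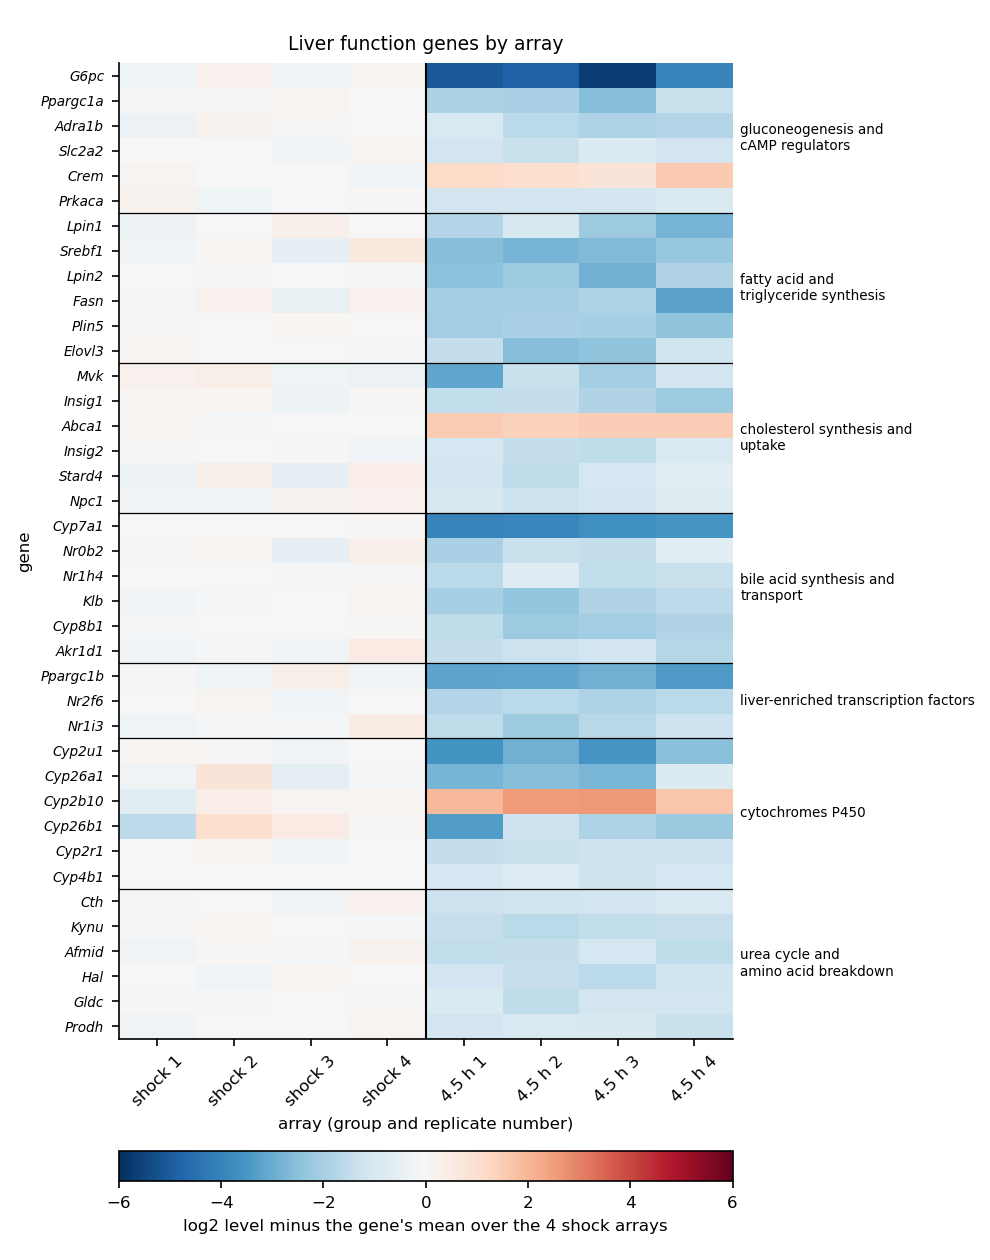
Heat map of 39 genes of liver function (rows) on the 4 shock and 4 resuscitated arrays (columns), coloured by the log2 level minus the mean of the shock arrays on a scale from -6 to 6. G6pc (-4.89) and Cyp7a1 (-3.79) have the deepest mean falls, and Abca1 (1.48) and Cyp2b10 (2.19) are among the rises.

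Detoxification enzymes fell more often than they rose. Of 41 cytochromes P450, 22 were lower and 4 higher (2 without shock array 2 or 4.5 h array 1), with a median difference of -0.34, and of 33 conjugation enzymes, 25 were lower and 2 higher (median difference -0.45). Cyp2u1, a fatty acid hydroxylase, was at least 4.5-fold lower (log2 difference -3.14, or -2.04 with the median of its probe sets). Ugt2b35, a glucuronosyltransferase, stood at 11.17, 11.14, 11.13 and 11.34 and then at 9.22, 9.16, 9.32 and 9.45, a 3.75-fold fall. Cyp2b10, the classic target of the receptor CAR, rose 4.56-fold from 7.97, 9.06, 8.83 and 8.81 to 10.63, 11.21, 11.27 and 10.33, while Nr1i3, the gene of CAR, fell 3.12-fold. The rise of Cyp2b10 did not pass the test in a model over all 20 arrays. Among the most abundant P450 genes, Cyp2e1 and Cyp3a11 did not pass the test, with differences of -0.05 and -0.11 at levels near 13 (12.88 to 13 for Cyp2e1). Of 24 liver-enriched transcription factors, 13 fell and 4 rose. Hnf4a, the main factor of hepatocyte identity, rose by 0.63 ± 0.09, from 11.06, 10.86, 11.21 and 10.83 to 11.74, 11.65, 11.61 and 11.47, but did not pass the test with the signals as deposited (0.36).

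Amino acid breakdown fell in 33 of 48 cases and rose in 5 (median difference -0.38). Kynu and Afmid, enzymes of tryptophan breakdown, fell 2.78-fold and 2.58-fold. Kynu stood at 9.90, 10.07, 9.97 and 9.90 and then at 8.56, 8.33, 8.47 and 8.59, a difference of -1.48 that was -0.89 with the median of its probe sets. Cth, which makes cysteine and hydrogen sulfide, fell 2.21-fold. Cps1, the entry enzyme of the urea cycle, had a difference of -0.16 at levels of 12.71 to 12.92, near the top of the scale, and its call was lost under 3 other scalings and within each spike-in set. Outside the lists, Ddc, which makes dopamine and serotonin from amino acid precursors, had the third largest fall, 16.7-fold, from 10.94, 10.20, 10.41 and 9.97 to 6.68, 5.84, 5.76 and 6.98. Sucnr1, the receptor for succinate, fell 11.7-fold and Hsd3b5, a male-biased steroid enzyme of mouse liver, 9.46-fold.

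Hormone and clock genes changed in part. Of 24 glucocorticoid-inducible genes, 10 fell (41.7%) and 6 rose (25%), where 27.2% and 20.7% of all genes did. Of 22 genes of the insulin, growth hormone and IGF axis, 10 fell (45.5%) and 4 rose (18.2%). Irs1, an adaptor of the insulin receptor, stood at 7.62, 6.94, 6.59 and 7.32 and then at 5.87, 5.52, 4.95 and 5.69, a 3.05-fold fall. Insr, the insulin receptor, rose by 0.52 on the log2 scale. Of 19 clock genes, 6 fell (31.6%) and 3 rose (15.8%), close to the shares of all genes. Arntl and Clock, the activators of the clock, fell 4.19-fold and 2.25-fold, while Per2, which they induce, rose 2.01-fold but did not pass the test with the signals as deposited (0.85). Arntl stood at 7.26, 6.90, 6.57 and 6.72 and then at 4.54, 5.21, 4.20 and 5.24, a difference of -2.07 that was -1.07 with the median of its probe sets. The groups were sampled 4.5 h apart, so hour of the day and resuscitation cannot be told apart for these genes.

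Among secreted liver factors, 10 of 24 fell and 4 rose. Nrg4, a ligand of the receptor ErbB4, stood at 5.47, 5.37, 5.22 and 5.27 at the end of shock and at 9.59, 9.44, 9.62 and 9.57 at 4.5 h. The rise of 4.22 ± 0.10 was 18.6-fold and had one of the 10 smallest p-values (adjusted p = 1.44e-10). It was 3.52 on the log2 scale with the median of its probe sets. The control arrays stood at 5.12, 4.64, 6.15, 6.09 and 8.71, with array 5 the high one, and the minor trauma arrays had a mean of 8.61. Angptl8, a feeding-induced inhibitor of lipoprotein lipase, fell 6.9-fold, from 8.78, 9.65, 7.88 and 8.69 to 5.58, 6.41, 5.13 and 6.73. Enho, which encodes the peptide adropin, fell 4.57-fold. Bmp2, a sinusoidal signal that drives hepcidin, fell 3.92-fold.

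Genes that build ribosomes rose, and few genes of ribosomal proteins changed. Of 44 ribosome biogenesis and nucleolar genes, 31 were higher and none lower (median difference 0.56), and 26 to 32 were higher when single arrays or the 2 arrays of lowest weight were left out. Heatr1, needed for transcription of ribosomal RNA, stood at 7.91, 7.56, 7.59 and 7.62 and then at 9.85, 9.70, 10.01 and 9.91, a 4.59-fold rise (log2 difference 2.20, or 1.23 with the median of its probe sets). Nop58, a core protein of the particles that methylate ribosomal RNA, rose 4.42-fold. Of 31 tRNA synthetases and translation initiation factors, 18 rose and 1 fell. Eif6, which keeps the large subunit apart until it is ready, rose 2.69-fold from 9.14, 9.02, 9.06 and 8.92 to 10.42, 10.44, 10.60 and 10.39, a log2 difference of 1.43 that was 0.71 with the median of its probe sets. Of 31 cytosolic ribosomal proteins, 3 were higher and 2 lower, with a median difference of -0.03. Rps20, among the higher ones, stood at 11.96 to 12.0 at 4.5 h, near the top of the scale, where a rise may be understated or not show. Of 39 respiratory chain and ATP synthase genes, 19 fell and 1 rose, with small changes (median difference -0.16). That count of 19 was 11 without shock array 2, 12 without shock array 3 and 9 without 4.5 h array 2. Of 20 cell cycle genes, 4 fell (20%) and 2 rose (10%), below the shares of all genes, 27.2% and 20.7%. Of 23 growth factor and regeneration genes, 8 rose (34.8%) and 7 fell (30.4%).

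Junctions and cytoskeleton changed gene by gene. Of 26 junction and adhesion genes, 10 rose and 11 fell. Cldn1 and Ocln, transmembrane proteins of the tight junctions that seal bile canaliculi, fell 9.86-fold and 4.32-fold. Cldn1 stood at 8.68, 8.18, 8.4 and 8.61 and then at 5.09, 4.93, 5.20 and 5.44, a log2 difference of -3.30 that was -2.71 with the median of its probe sets. Ocln stood at 7.33, 7.35, 7.54 and 7.49 and then at 5.14, 5.24, 5.40 and 5.49. Tjp3 and Cgn, adaptor proteins of the same junctions, fell 4.27-fold and 3.71-fold (Tjp3 by 2.09 on the log2 scale, and by 2.69 with no pseudocount), while Cldn14, another claudin, rose 3.06-fold. Of 27 tubulin, actin and related genes, 9 rose and 9 fell. Tubb2a, a beta tubulin, fell 8.57-fold from 10.49, 10.72, 10.24 and 10.39 to 6.95, 7.08, 6.77 and 8.65, with array 4 the high one at 4.5 h. Its log2 difference of -3.10 was -2.29 with the median of its probe sets. Tubb6, another beta tubulin, rose 3.42-fold, but a second probe set of that gene fell by 0.88 on the log2 scale, and the median of both (0.45) did not pass the test.

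Vessel genes moved in both directions, with 6 of 23 endothelial adhesion and vasoactive genes higher and 6 lower (26.1% each way), close to the shares of all genes. Selp, P-selectin, on which leukocytes roll, stood at 5.85, 5.90, 5.70 and 5.65 and then at 8.54, 8.56, 9.09 and 8.55, a 7.53-fold rise. Icam1, to which rolling leukocytes then adhere, rose by 1.67 on the log2 scale, and by 1.31 without shock array 4. Its 1 h mean of 10.31 lay above all 4 values at 4.5 h, 9.15 to 9.37. Agtr1a, the receptor of angiotensin II, fell 4.15-fold from 9.65, 9.59, 9.63 and 9.76 to 7.49, 7.56, 7.6 and 7.77. Kdr and Tek, receptors for vascular growth factors and angiopoietins, fell 5.23-fold and 3.07-fold.

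Markers of the resident sinusoidal cells fell while those of recruited cells rose. Of 21 Kupffer cell markers, 16 were lower and 2 higher (median difference -0.99), and 15 or 16 were lower when single arrays or the 2 arrays of lowest weight were left out. Cd163, the receptor for haptoglobin-bound hemoglobin, stood at 7.78, 7.61, 7.65 and 7.87 and then at 4.80, 5.05, 5.58 and 5.15, a 5.99-fold fall. Vsig4, a complement receptor of Kupffer cells, fell 5.29-fold and Clec4f, a lectin found on Kupffer cells, 3.16-fold. Marco, a scavenger receptor, and Spic were the 2 that rose. Marco rose by 1.80 on the log2 scale, by 1.17 within the spiked arrays and by 2.43 within the others. The summed linear level of 22 Kupffer cell markers ran from 7457 to 8110 on the shock arrays and from 3251 to 3981 at 4.5 h, with Xcr1 below the array median throughout. Of 26 sinusoidal endothelial markers, 16 fell and 2 rose. Clec4g stood at 9.68, 9.53, 9.75 and 9.72 and then at 7.83, 8.12, 7.64 and 8.10, a 3.37-fold fall, and Stab2, a scavenger receptor for hyaluronan, fell by 1.03 on the log2 scale, while Lyve1, another hyaluronan receptor, rose by 0.65. The sum of the 28 markers ran from 4807 to 5437 and then from 2867 to 3056. Of 19 stellate cell and fibroblast markers, 9 fell and 2 rose, with Lrat, which stores vitamin A as an ester, falling 6.35-fold.

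Neutrophil markers were higher in 11 of 13 tested cases and lower in none, with a median difference of 1.68, and in 6 cases within the unspiked arrays. S100a8, a subunit of the neutrophil protein calprotectin, stood at 10.10, 9.26, 9.97 and 7.88 at the end of shock and at 10.95, 11.03, 11.16 and 10.88 at 4.5 h, against a control mean of 4.93. Its rise of 1.70 ± 0.38 was 1.23 without shock array 4 and did not pass the test within the unspiked arrays (adjusted p = 0.0585). All 4 shock values already lay above the control mean. Of 17 monocyte and recruited macrophage markers, 11 rose and 2 fell. Chil3, a lectin of activated macrophages, was at least 8.81-fold higher, and F13a1 and Ms4a4c, which mark monocytes, were at least 3.96-fold and 6.76-fold higher. These 3 passed the filter only through the 4.5 h arrays, so they could enter the count only as rises. The 2 that fell were Lyz1 and Lyz2, and Ccr2, Fcgr1, Spn and Trem1 did not pass the test. Of 13 hepatocyte markers, 2 rose and 3 fell, with a median difference of -0.06. Their summed level ran from 77994 to 80573 and then from 75145 to 77518, without overlap. That sum is weighted to its brightest members, such as Alb, near the top of the scale, where a change may be understated. It therefore says little about the amount of hepatocyte RNA. Lymphocyte markers changed in 3 of 11 tested cases, with Cd3d, Cd3e and Cd4 among 8 markers that lay below the array median on all 8 arrays. Of 9 red cell and platelet markers tested, 3 fell and 1 rose, and of 4 cholangiocyte markers 1 rose.

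**Figure D5:**
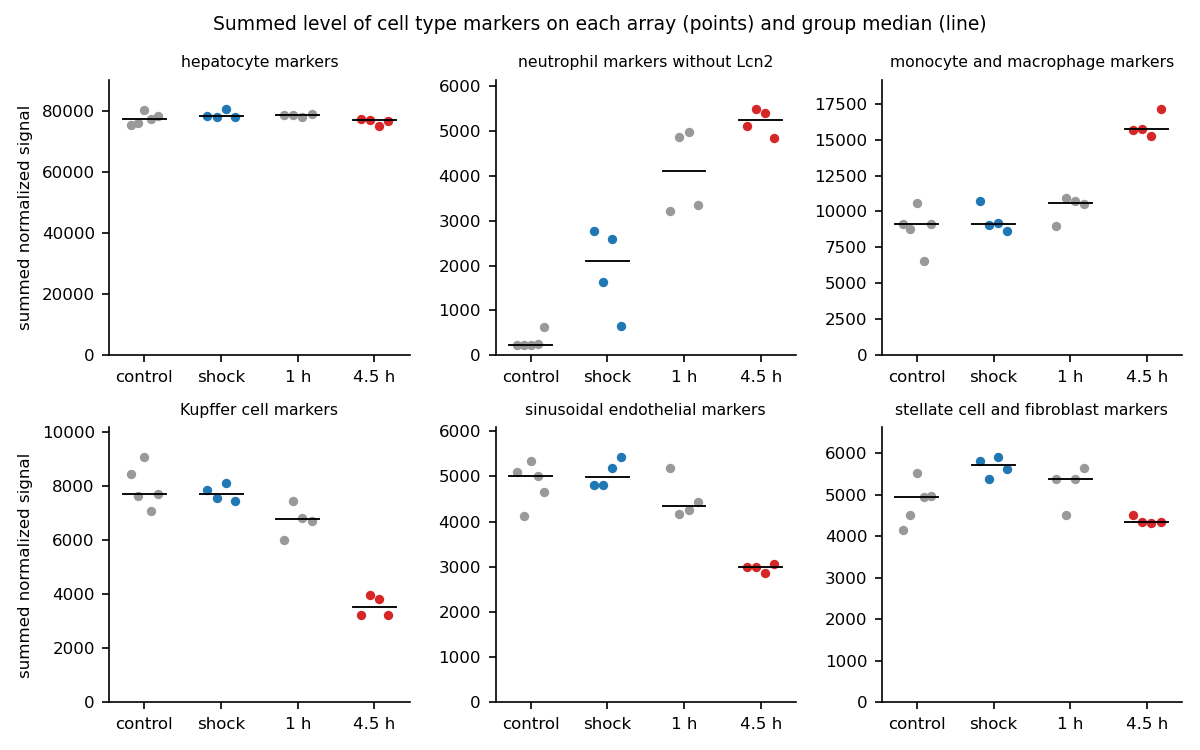
Summed linear level of the marker genes of 6 cell types on each array (points) in control (n = 5), shock, 1 h and 4.5 h of resuscitation (n = 4 each), with horizontal bars at the group medians. Neutrophil markers without Lcn2 and monocyte markers have their highest group median at 4.5 h. The neutrophil sums at 1 h, 3209 to 4985, overlap those at 4.5 h, 4856 to 5483. Kupffer cell markers fall from 7457 to 8110 in shock to 3251 to 3981 at 4.5 h.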

How the data were processed

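Whole liver RNA was extracted with TRIzol, copied from oligo-dT primers and hybridised as biotin-labelled cRNA to Affymetrix Mouse430_2 arrays, per the labels' protocols. Each deposited value is a probe set's linear intensity from MAS5, named without version or settings in the submitters' processing notes. Their precision rests on the number of arrays, 4 in each group. No 2 of the arrays held identical values.

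Of 45101 probe sets, 34945 had a single gene, 932 several and 9160 none in the platform annotation, and 64 were controls. Symbols were updated through RefSeq (GRCm38.p6). Signals plus a pseudocount of 6 were put on the log2 scale and quantile normalized over the 8 arrays. Other arrays were mapped to the same quantiles for display. A probe set was kept if above its array's median on at least 4 of 8 arrays, and the kept one with the highest mean stood for its gene, which left 11311 of 18193 genes. Groups were compared with limma 3.58.1 in R 4.3.3 (data.table, version 1.17.8), with an intensity trend and Benjamini-Hochberg adjustment over all genes tested, and 0.05 was the limit for a call. The script was tested on simulated data. A gene at or below its array's median on all arrays of the lower group has a fold given as a bound. Such a gene passed the filter only through the other group. Array measures were compared by exact permutation.

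The 55 gene lists hold 1411 genes, of which 132 were not matched and are not analysed here. Some lists share genes. The lists and the comparison were chosen with earlier results of these data known, so counts describe the lists and test nothing about them. Named genes were the 15 largest rises and falls among called genes, the 10 smallest p-values, and in each list the largest changes among called members, at most 6, leaving out clone and locus names. Members named beyond that rule (such as Ifnb1, Ifnar1, B2m, Tnf, Il1b, Nfkbia, Irf7, Stat2, Irf9, Myd88, Egr1, Myc, Ccn2, Crp, Hp, Hamp, Saa1, Saa2, Pck1, Cpt1a, Insr, Vegfa, Alb) were chosen after their values were seen. Alternatives covered normalization, pseudocount, filter, probe set choice, the arrays in the model, the spread model, the replicate block, the spike-in set and each array left out. Python 3.11.15 with pandas 2.3.3, numpy 2.4.6 and matplotlib 3.10.9 drew the figures.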

Additional observations from a re-analysis of the deposited data

Results flagged for a closer look

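In 650 groups of 4 arrays (both groups of the named genes, the array measures and the summed marker levels), 40 (6.15%) had 1 array whose gap to its nearest neighbour, divided by the group's range, passed Dixon's critical value for 4 values. Chance alone marks about 5% of such groups. No cause was tested for any of them.

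Shock array 4 had the highest brightness in its group, a trimmed mean of 166 where the others ran from 77.2 to 88.3. It was the low array for the inflammatory genes Cd14 (7.33), Cd83 (6.26), Icam1 (6.56) and Il1rn (4.47), each over 1 log2 unit under its group, and the high array for Gclc (10.66) and Psmd11 (10.84). Other shock arrays that stood apart were array 1 for Il33 (4.19), Mtf1 (6.26), Pdk2 (7.83) and Slc40a1 (9.57), array 2 for Cdkn2c (6.91), Gldc (8.80) and Kars (7.69), and array 3 for Cxcl11 (4.99), F13a1 (3.59), Insig1 (11.31), Pdgfrb (6.45) and Syvn1 (7.96).

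At 4.5 h, array 4 was the low one for A2m (8.31), Fasn (7.73), Rps20 (11.96) and Saa3 (12.21). It was the high one for Chil3 (8.74), Cryab (5.07), Cyp26a1 (8.64), Keap1 (8.88), Prkaca (8.06), Tpm4 (9.06) and Tubb2a (8.65). Array 3 was high for Afmid (8.06), Gstm4 (8.08), Marco (8.34), Selp (9.09) and Tap1 (9.51). Array 1 was low for Ifit3 (11.97), Il6 (5.31), Jun (8.63) and Mx1 (8.29), and high for the summed stellate cell and fibroblast markers (4504).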

How the results depend on the processing

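Of 311 named genes, 217 stayed called in the same direction under every one of 26 alternatives that tested them (the filter above the median on all 8 arrays tested 263 of the 311), 14 were not called when some single array was left out, and 4 reversed under an alternative. The reversals were Cfp (0.31) and Psma1 (-0.10) with the median of a gene's probe sets, Rps20 with the signals as deposited (-0.10), and Glul (-0.00041) with the signals as deposited. With median centring the Rps20 log2 fold change was -0.0070. The count of 5423 called genes fell to 1915 (586 higher, 1329 lower) with no normalization, to 3329 (1466 and 1863) within the spiked arrays and to 2741 (1220 and 1521) within the unspiked ones, which hold fewer arrays. It ran from 4800 to 5223 when single arrays were left out, with 2065 to 2224 higher and 2708 to 2999 lower, and was 4538 without the 2 arrays of lowest weight, an alternative chosen after seeing the data. Without those arrays the log2 differences of A2m, Mvk and Angptl8 were 4.68, -1.25 and -2.18. With the replicate number as a block, 5111 genes were called (2206 higher, 2905 lower). The numbers share only a label: same-numbered samples had correlated deviations of -0.016 to 0.034, and 1 of 4 samples was closest to its own number. The list medians that changed sign under some scaling were those of glycolysis, integrated stress response, growth factors, cytoskeleton and vessel genes. The precision of each value is limited by 4 arrays a group.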

Other observations

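Probe sets with no gene name or several in the annotation were tested separately. Of 3256, 572 were higher at 4.5 h and 537 lower, with log2 differences from -3.42 to 5.41. Of the called genes, 2622 had another kept probe set, and for 65 of these another probe set was called in the opposite direction.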
